A study of Mus musculus with 25 samples.

Results

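Solute carrier transporters were followed across the 9 macrophage conditions of a mouse RNA-seq series. Members are the gene symbols made of Slc, a family number and a letter that had at least 100 counts summed over the 21 samples of bone marrow-derived macrophages (BMDMs). Slc7a2, Slc7a11, Slc40a1, Slc11a1, Slc11a2, Slc2a1 and Slc16a3 were left out by the rule. This gave 164 members from 42 SLC families, of 373 symbols with that pattern and 24411 gene symbols in all. The members were thus chosen by their summed count in BMDMs, so being expressed in BMDMs is not a finding. Just inside the threshold were Slc36a2, Slc25a23 and Slc18a1 with 109, 116 and 121 counts, and just outside were Slc29a2, Slc2a4rg-ps and Slc43a3 with 97, 97 and 88. Without the BMDM group in which each was highest, 6 members would have been under 100 counts, namely Slc18a1, Slc19a2, Slc25a23, Slc27a6, Slc2a3 and Slc36a2, so for these part of any difference between groups comes with the rule. The symbols also took in 3 genes that are not transporters, Slc4a1ap, Slc7a6os and Slc9a3r1.

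BMDMs came from C57BL/6 mice and were differentiated from bone marrow with 25 ng/ml M-CSF over 4 days. They form 7 groups of 3 samples: a control cultured for 4 h, cells given 100 U/ml IFN-γ and 100 ng/ml LPS (IFN-LPS) for 1, 4, 12 or 24 h, and cells given 10 ng/ml IL-4 or 10 ng/ml IL-13 for 12 h. The same 3 control samples serve all 6 treated BMDM groups, and only the 4 h group matches them in culture time. RAW264.7, a mouse macrophage cell line grown in a different medium, forms 2 groups of 2 samples, a 4 h control and 100 ng/ml LPS for 4 h without IFN-γ. The labels give both agents for the stated times, while the study speaks of IFN-γ priming before LPS, and the length of such a step is not given in the sources used here. The methods of the study call the RNA samples independent biological replicates. Whether they came from separate animals or cultures is not given in the sources used here, so p-values measure the spread between these samples.

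Solute carriers move nutrients, ions, metals and metabolites across the plasma membrane and the membranes of lysosomes, mitochondria, endoplasmic reticulum and Golgi. They are numbered by family, and members of a family share sequence and often a kind of substrate. Macrophages use them to take up glucose and amino acids, to handle iron, zinc and copper, to empty the lysosome of digested material, and to exchange metabolites between mitochondria and cytosol. Grouped by family, each family under its usual substrate, the members comprised 33 mitochondrial carriers, 22 amino acid transporters, 20 ion and pH transporters, 20 nucleotide sugar transporters, 19 transporters of metals and haem, 13 of sugars and polyols, 11 of carboxylates and anions, 11 of peptides, nucleosides and vitamins, 8 of lipids, choline and bile acids, and 4 of organic ions and others.

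The 25 samples held 2378639 to 3357300 counts on genes, of which 1502618 to 2532496 remained without the ribosomal precursor Rn45s. Members held 15742 to 26893 counts per sample, 1.01% to 1.15% of those. Levels are CPM, each count divided by the TMM-scaled library size without Rn45s. Marker values alone are CPM without Rn45s and without TMM factors. The macrophage markers Csf1r, Adgre1, Cd68 and Lyz2 were above 90 CPM in every group mean. All 7 macrophage markers in the files summed to 24870 to 26730 CPM in the BMDM control. Their sum was 18160 to 19150 CPM in the 1 h group, 15780 to 16720 in the 4 h group, 16680 to 18460 in the 12 h group and 26800 to 30360 in the 24 h group of IFN-LPS, 21340 to 22930 with IL-4, 23950 to 24850 with IL-13 and 11030 to 11080 in control RAW264.7. Stromal markers summed to 21.7 to 58.2 CPM in the BMDM samples and to 0 in RAW264.7, and erythroid markers to at most 0.665 CPM. Endothelial markers summed to 28.6 to 36.1 CPM in the BMDM control, 12.1 to 20.7 in the 1 h group, 24.7 to 32.6 in the 4 h group, 43.97 to 51.1 in the 12 h group and 35.1 to 46.98 in the 24 h group, and to 0.929 to 1.84 CPM in RAW264.7. In these units, the macrophage sum overlapped that of the BMDM control in none of the other groups, being higher at 24 h and lower elsewhere. The endothelial sum was lower at 1 h and in RAW264.7 and higher at 12 h, without overlap. TMM factors were 1.09 to 1.11 in the BMDM control and 0.717 to 0.751 at 4 h, so the order of the sums with TMM factors can differ. The part of these markers in the results was not tested. Antisense reads of Rn45s were 0.0386% to 0.122% in the 12 samples of the BMDM control, 1, 4 and 12 h groups and 0.00603% to 0.0214% in the 9 samples of the 24 h, IL-4 and IL-13 groups. In the 4 RAW264.7 samples they were 0.0199% to 0.0283%. The 24 h, IL-4 and IL-13 comparisons cross this difference, and those of RAW264.7 with BMDMs cross a difference in the same measure. The part of these differences in the results was not tested.

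Compared per kb of exon, the highest members by the mean of the 9 groups were Slc25a5, Slc3a2, Slc15a3, Slc2a6, Slc31a2, Slc39a1, Slc48a1, Slc9a3r1, Slc25a11 and Slc25a39. Slc25a5, the mitochondrial ADP/ATP carrier, averaged 273 CPM per kb and was at 146 CPM per kb in control BMDMs and 474 in control RAW264.7. Slc3a2, the heavy chain that brings LAT1 and related transporters to the cell surface, averaged 151 CPM per kb. Slc15a3, a lysosomal peptide and histidine transporter, averaged 146 CPM per kb, and Slc2a6, the hexose transporter GLUT6, 121. This order pools groups with different levels. Slc2a6 was at 3.401 CPM per kb in the BMDM control and 452 at 4 h, and Slc31a2 at 27.1 in the control and 305 at 12 h. In control BMDMs alone, Slc37a2 with 91.1 CPM per kb and Slc6a6 with 74.2 were among the 10 highest members, and Slc2a6 and Slc31a2 were not. Slc48a1, a haem transporter of endosomes and lysosomes, was at 314 ± 11.5 CPM in the control, 146 ± 13.4 at 4 h and 602 ± 20.6 at 24 h (mean ± SD, n = 3), log2 fold changes of -1.12 and 0.93 that did not pass the cutoffs below.

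The IFN-LPS time course asks how a pro-inflammatory stimulus changes transporter mRNA over 24 h. Members were called at the cutoffs of the study, an FDR up to 0.01 together with 1.5 or more on the log2 scale, in edgeR's quasi-likelihood test over 9841 genes. Each SE given is the size of the log2 fold change divided by the square root of the test's F statistic. It is not a directly fitted standard error and can be too small for members with few counts. In this and the later comparisons, the rule for naming members required a call without overlap of the groups. For members named by that rule, a lack of overlap comes with the choice and is not a result. Of the 164 members, 162 passed the filter on low counts, and Slc25a35 and Slc19a2 did not. At 1 h, 4 members were higher and 2 lower, 2.47% and 1.24% of those tested, and 5.02% and 2.18% of all genes were called higher and lower. At 4 h, 21 members were higher and 17 lower, 12.96% and 10.5% of those tested, and 11.2% and 11.3% of all genes were called higher and lower. At 12 h, 13 members were higher and 21 lower, 8.03% and 12.96% of those tested, and 8.78% and 8.46% of all genes were called higher and lower. At 24 h, 12 members were higher and 14 lower, 7.41% and 8.64% of those tested, and 7.62% and 7.34% of all genes were called higher and lower. At these times the median log2 fold change of the tested members was -0.03, -0.34, -0.13 and -0.17, beside -0.01, -0.06, -0.01 and 0.00 over all genes. The shares of members called were within 2 percentage points of those of all genes except at 1 h, where fewer members were higher, and at 12 h, where more were lower, and these differences between shares were not tested. In bulk samples such as these, fewer cells of a type and less RNA per cell cannot be told apart.

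**Figure D1:**
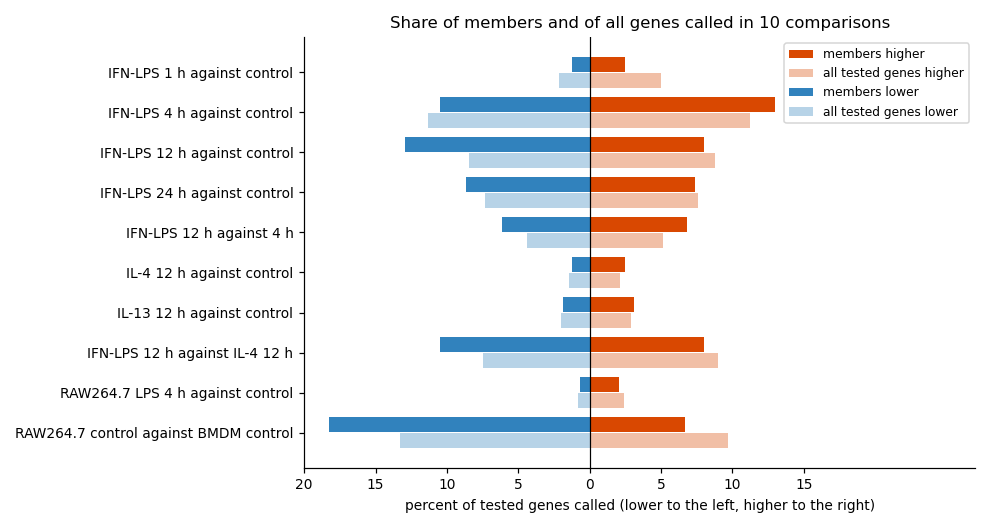
Percent of tested genes called in 10 comparisons, for the members and for all tested genes, with higher and lower calls drawn apart. At 4 h of IFN-LPS the higher calls were 12.96% of members and 11.2% of all genes, and between control RAW264.7 and control BMDMs the lower calls were 18.3% and 13.3%. Members, unlike all genes, were chosen by counts in BMDMs, so part of the difference between the cells can come with that rule.

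Over the time course, 26 members were higher at 1 time or more (14.4% of all genes were) and 32 were lower (16.7%). None was called in both directions, and 104 were called at no time. Higher at all 4 times were 3 members, Slc2a6, Slc25a37 and Slc7a5 (2.94% of all genes), and lower at all 4 times were 2, Slc9a9 and Slc27a6 (0.793%). The 1 h call of Slc27a6, at 1.12, 0 and 1.01 CPM against 1.61, 4.34 and 5.34 in the control, was lost with DESeq2 and in 16 of 21 fits with 1 sample left out. Its 4 h call was lost with DESeq2 and without control replicate 3, 4 h replicate 2 or 4 h replicate 3. Another 6 members were higher at 4, 12 and 24 h and not called at 1 h: Slc1a2, Slc6a12, Slc28a2, Slc25a12, Slc25a22 and Slc31a2. Likewise lower at 4, 12 and 24 h were 4 members, Slc25a23, Slc26a11, Slc37a2 and Slc46a3, and the 4 h call of Slc25a23 was lost with DESeq2 and without control replicate 2, 4 h replicate 2 or 4 h replicate 3. Slc25a23 passed the count rule only through its control samples, so part of its difference comes with the rule. Of the 26 higher members, 15 had their highest mean at 4 h and 8 at 12 h. Of the 32 lower members, 12 had their lowest mean at 4 h, 14 at 12 h and 6 at 24 h. Some calls came at 1 time: 11 members were higher at 4 h alone, 8 were lower at 4 h alone and 8 were lower at 12 h alone. The share of all genes was not counted for these patterns or for calls at 4, 12 and 24 h but not 1 h. Nor was it counted for the times of the highest and lowest means. These counts thus describe the members and cannot be read as particular to them. Times were tested against each other only for 12 and 4 h.

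**Figure D2:**
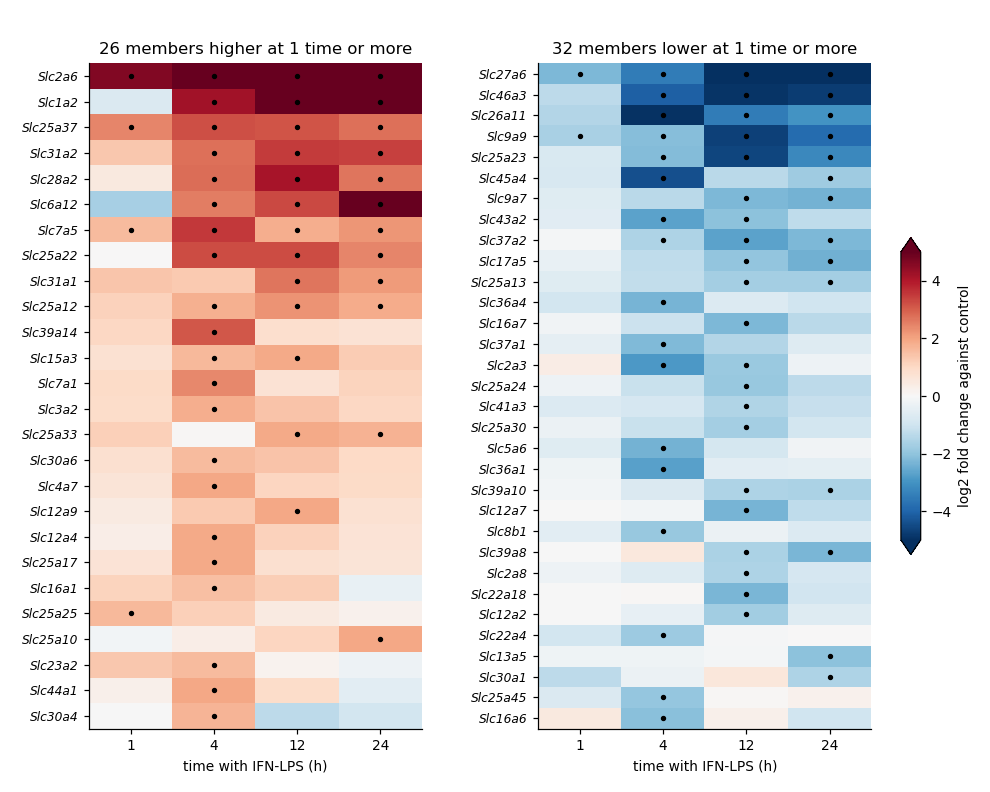
Log2 fold change against control BMDMs for the 26 members higher and the 32 lower at 1 time or more with IFN-LPS, by time in h; dots mark calls and the colours stop at 5 and -5. Slc2a6, Slc25a37 and Slc7a5 carry dots at all 4 times among the higher members, and Slc27a6 and Slc9a9 among the lower ones.

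The families of sugar and polyol transporters held the highest log2 fold change at 4 h among all members, that of Slc2a6. Of the 13 members at 4 h, 1 was higher and 5 were lower, with a median log2 fold change of -1.18, beside 11.2% and 11.3% of all genes called higher and lower. The 5 lower members were Slc37a1, Slc37a2, Slc45a4, Slc2a3 and Slc5a6. Slc5a6 carries vitamins such as biotin and not sugars, and about as many of its counts lay on the opposite strand. Slc2a6 was at 11.8, 8.14 and 12.8 CPM in the 3 control samples. It was at 264, 272 and 291 CPM at 1 h, 1542, 1408 and 1401 at 4 h, 1165, 1141 and 1128 at 12 h and 392, 382 and 333 at 24 h. Every IFN-LPS sample lay above every control sample, and the highest levels came at 4 h. The log2 fold change was 4.64 (SE 0.146, adjusted p = 6.40e-36) at 1 h and 7.03 (SE 0.138, adjusted p = 5.93e-47) at 4 h. It was 6.695 at 12 h and 5.06 at 24 h.

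Of the 4 members of the sugar phosphate exchanger family, Slc37a1 and Slc37a2 were called lower at 1 time or more and Slc37a3 and Slc37a4 at none. Slc37a2 was at 611, 637 and 567 CPM in the control, 239, 217 and 179 at 4 h, 98.2, 87.1 and 102 at 12 h and 131, 125 and 132 at 24 h, with a log2 fold change of -2.66 (SE 0.103, adjusted p = 8.92e-32) at 12 h. Its 4 h value of -1.53 ranged from -1.62 to -1.42 with 1 sample left out and lost its call without control replicate 2 or 4 h replicate 3. Slc37a1, of the same family, was at 11.8, 14.1 and 12.8 CPM in the control and 4.43, 1.55 and 2.46 at 4 h. Both genes had no treated sample within the control range at 4 h. Slc37a3 and Slc37a4 had log2 fold changes of -0.39 and -1.495 at 4 h and -0.56 and -0.12 at 24 h. Slc45a4 was at 18.2, 16.3 and 21.9 CPM in the control and 0, 0 and 2.46 at 4 h. Slc2a3, the glucose transporter GLUT3, stayed at or below 6.72 CPM in every BMDM sample, and its lower calls at 4 and 12 h rest on few counts and were lost with DESeq2. The 4 h call was also lost without 4 h replicate 2 or 4 h replicate 3, and the 12 h call without control replicate 1, control replicate 3, 12 h replicate 1 or 12 h replicate 3. Slc2a9, a urate transporter, and Slc5a3, a myo-inositol importer, had log2 fold changes of -0.55 and -1.18 at 4 h and were not called.

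**Figure D3:**
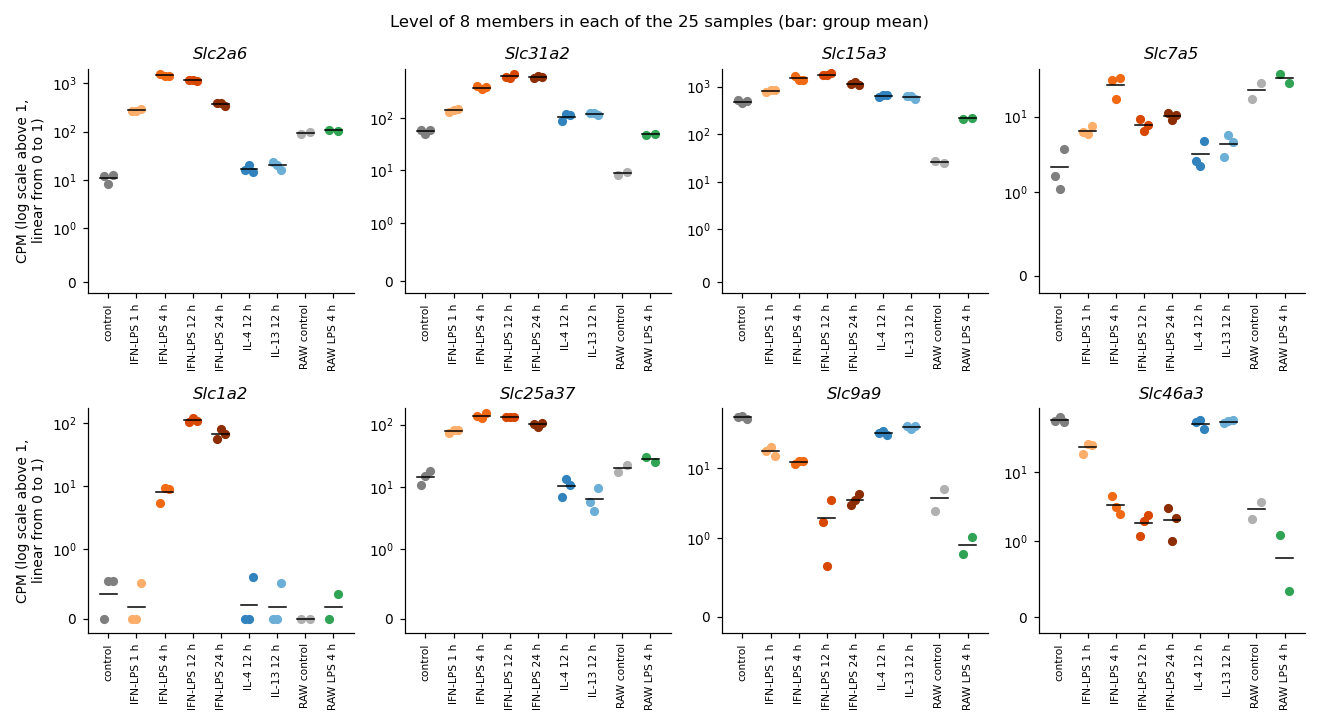
Level of 8 members in each of the 25 samples over the 9 conditions, in CPM on an axis that is linear near 0 and logarithmic above; points are samples and bars group means. Slc2a6, Slc31a2, Slc15a3, Slc7a5, Slc1a2 and Slc25a37 lie above the BMDM control at 4, 12 and 24 h of IFN-LPS, and Slc9a9 and Slc46a3 below it.

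Of the 22 amino acid transporters, 5 were higher and 3 lower at 4 h, with a median log2 fold change of 0.19, beside 11.2% and 11.3% of all genes. Slc7a5, the LAT1 light chain for leucine and other large neutral amino acids, was at 1.61, 1.08 and 3.74 CPM in the control and 30.1, 17.1 and 32 at 4 h, a log2 fold change of 3.55 (SE 0.365, adjusted p = 6.70e-13). Its partner Slc3a2 was at 313, 312 and 325 CPM in the control and 1170, 1158 and 1072 at 4 h, a log2 fold change of 1.82 (SE 0.0903, adjusted p = 1.97e-26). Slc7a1, the arginine and lysine importer CAT1, was at 12.9, 22.8 and 17.6 CPM in the control, 99.2, 92.5 and 95.2 at 4 h and 30.6, 33.8 and 24.7 at 12 h. All 3 genes had their highest mean at 4 h, with every 4 h sample above the control samples. The call of Slc7a5 at 1 h (1.57) was lost with DESeq2 and without control replicate 1, control replicate 2, 1 h replicate 1 or 1 h replicate 3. Slc38a2, the neutral amino acid importer SNAT2, had log2 fold changes of 1.36 at 4 h and -0.96 at 12 h, both under the cutoff. Slc1a5, the glutamine carrier ASCT2, was at 15.1 ± 1.32 CPM in the control and 8.26 ± 0.776 at 4 h (mean ± SD, n = 3), and was not called.

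Slc1a2 and Slc6a12 were low in the control and higher at 4, 12 and 24 h. Slc1a2, the glutamate transporter EAAT2, was at 0, 0.542 and 0.534 CPM in the control and 0, 0 and 0.506 at 1 h. It reached 5.31, 9.32 and 9.03 CPM at 4 h, 106, 118 and 109.5 at 12 h and 56.2, 80.04 and 67.4 at 24 h. The fitted log2 fold change at 12 h was 8.01 (SE 0.336, adjusted p = 5.48e-30), whose size depends on the prior count, since the control samples held at most 1 count each. The SE is derived from that value and can understate the uncertainty at so few counts. Slc6a12, which carries betaine and GABA, was at 1.61, 2.17 and 3.74 CPM in the control, 16.8, 14.8 and 14.8 at 4 h, 23.1, 22.8 and 31.2 at 12 h and 80.2, 96.5 and 83.8 at 24 h, where the log2 fold change was 5.06 (SE 0.252, adjusted p = 3.24e-26). The 2 genes had their highest BMDM means at different times, 12 h and 24 h. Slc6a6, the taurine transporter, was at 608, 633 and 641 CPM in the control and 324, 225 and 216 at 24 h, a log2 fold change of -1.31 that was under the cutoff.

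The 3 amino acid transporters lower at 4 h were Slc36a1, Slc36a4 and Slc43a2. Slc36a1, a proton-coupled amino acid transporter of the lysosome, was at 94.95, 74.3 and 104 CPM in the control and 13.3, 10.9 and 17.2 at 4 h, a log2 fold change of -2.73 (SE 0.208, adjusted p = 9.09e-18). By 12 h it was at 53.7, 57.9 and 77.7 CPM. Slc36a4, of the same family, was at 19.9, 14.7 and 16.03 CPM in the control and 3.54, 4.66 and 1.64 at 4 h. Slc43a2, the neutral amino acid transporter LAT4, was at 355, 302 and 318 CPM in the control, 49.6, 55.2 and 50.9 at 4 h and 71.6, 83.9 and 78.3 at 12 h, with a log2 fold change of -2.66 (SE 0.132, adjusted p = 2.35e-26) at 4 h. Every 4 h sample of these genes lay below every control sample.

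Of the 19 metal and haem transporters, 4 were higher and 0 lower at 4 h, 2 and 2 at 12 h, and 2 and 3 at 24 h, beside 11.2% and 11.3%, 8.78% and 8.46%, and 7.62% and 7.34% of all genes. Both copper transporters rose. Slc31a2, the CTR2 protein of endosomes and lysosomes, was at 59.01, 48.8 and 57.2 CPM in the control, 397, 347 and 382 at 4 h, 586, 583 and 691 at 12 h and 568, 621 and 605 at 24 h, with a log2 fold change of 3.49 (SE 0.115, adjusted p = 2.31e-35) at 12 h. Slc31a1, the importer CTR1, was at 61.1, 63.5 and 59.3 CPM in the control and 349, 362 and 484 at 12 h, a log2 fold change of 2.69 (SE 0.126, adjusted p = 3.13e-27). At 4 h it was at 116, 166 and 178 CPM, a log2 fold change of 1.31 under the cutoff. Every 12 and 24 h sample of both genes lay above the control samples.

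Zinc transporters differed in course. Slc39a14, the zinc and iron importer ZIP14, was at 8.05, 7.05 and 10.7 CPM in the control, 84.1, 68.4 and 74.7 at 4 h and 16.2, 19.5 and 11.2 at 12 h, with a log2 fold change of 3.11 (SE 0.219, adjusted p = 2.30e-19) at 4 h. Slc30a4, the zinc transporter ZnT4, was at 19.3, 19.5 and 11.2 CPM in the control, 46.05, 52.8 and 63.2 at 4 h and 9.24, 6.502 and 4.12 at 12 h. Both lay above the control samples at 4 h, and the 4 h log2 fold change of Slc30a4, 1.68, was 1.46 and under the cutoff without control replicate 3. Slc39a8, the importer ZIP8, was at 15.6, 19.5 and 17.1 CPM in the control and 2.93, 2.49 and 5.05 at 24 h, a log2 fold change of -2.27 (SE 0.301, adjusted p = 2.39e-09). Slc39a10, another zinc importer, was at 61.5 ± 2.21 CPM in the control and 20.6 ± 3.67 at 24 h (mean ± SD, n = 3), and its log2 fold change of -1.57 was -1.45 without 24 h replicate 1. Slc30a1, the zinc exporter ZnT1, was at 37.5, 27.7 and 33.1 CPM in the control and 15.6, 8.95 and 9.69 at 24 h. That call (-1.53) was lost with unstranded counts and without control replicate 1, 24 h replicate 2 or 24 h replicate 3.

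The mitochondrial carriers are grouped here as the whole SLC25 family, whether or not each member acts in mitochondria. Of the 32 tested, 4 were higher and 2 lower at 4 h, 4 and 4 at 12 h, and 5 and 2 at 24 h, beside 11.2% and 11.3%, 8.78% and 8.46%, and 7.62% and 7.34% of all genes. Slc25a37, the iron importer mitoferrin-1, was at 10.7, 15.2 and 18.2 CPM in the control, 73.9, 83.01 and 81.9 at 1 h, 138, 125 and 151 at 4 h and 102, 92.97 and 106 at 24 h, with a log2 fold change of 3.21 (SE 0.169, adjusted p = 3.77e-25) at 4 h. Slc25a22, a glutamate carrier, was at 4.83, 8.14 and 10.2 CPM in the control and 93.9, 57.5 and 74.7 at 4 h, a log2 fold change of 3.25 (SE 0.225, adjusted p = 9.32e-20). The aspartate/glutamate carriers went opposite ways. Slc25a12 (aralar) was at 20.9, 23.3 and 23.5 CPM in the control and 91.8, 120.3 and 111 at 12 h, a log2 fold change of 2.24 (SE 0.153, adjusted p = 6.90e-20). Slc25a13 (citrin) was at 45.6, 57.5 and 45.4 CPM in the control and 17.3, 17.6 and 10.6 at 12 h, a log2 fold change of -1.71 (SE 0.202, adjusted p = 7.17e-11). Neither gene's 12 h samples overlapped its control samples.

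Slc25a10, which exchanges dicarboxylates such as malate and succinate for phosphate, was at 64.4, 58.6 and 50.2 CPM in the control and 225, 223 and 219 at 24 h, a log2 fold change of 1.94 (SE 0.114, adjusted p = 8.03e-23). Slc25a1, the citrate carrier, and Slc25a11, the oxoglutarate carrier, were not called at 4, 12 or 24 h, with log2 fold changes of 0.67 and 0.62 at 12 h. Slc25a25, a calcium-regulated ATP-Mg carrier, was called higher at 1 h alone: it was at 28.4, 36.4 and 24.1 CPM in the control and 100.2, 79.2 and 95.1 at 1 h, and its log2 fold change of 1.62 fell just under the cutoff of 1.5 without control replicate 3. Slc25a33, a pyrimidine nucleotide carrier, was at 5.901, 5.97 and 6.41 CPM in the control and 24.2, 18.9 and 24.7 at 12 h.

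Of the 10 transporters of peptides, nucleosides and vitamins tested, 3 were higher and 1 lower at 4 h, beside 11.2% and 11.3% of all genes. The vitamin transporter Slc5a6 is not among them, since it was grouped with its family. Slc15a3 was at 512, 441 and 486 CPM in the control, 1676, 1381 and 1387 at 4 h and 1732, 1716 and 1918 at 12 h, a log2 fold change of 1.89 (SE 0.0924, adjusted p = 1.10e-26) at 12 h. Slc15a4, a related transporter of the same compartment, was at 98.6 ± 7.48 CPM in the control and 59.1 ± 7.18 at 12 h (mean ± SD, n = 3), a log2 fold change of -0.74 that was not called. Slc28a2, which concentrates nucleosides with sodium, was at 11.8, 11.9 and 7.48 CPM in the control and 158, 132 and 261 at 12 h, a log2 fold change of 4.13 (SE 0.273, adjusted p = 8.66e-12). Slc15a3 and Slc28a2 had every 12 h sample above the control samples. Slc23a2, a vitamin C importer that was chosen after its values were seen, was at 235, 232 and 248 CPM in the control, 701, 779 and 698 at 4 h and 259, 278 and 279.6 at 12 h.

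Slc46a3, a lysosomal transporter, was among the members that fell most. It was at 54.7, 61.8 and 52.4 CPM in the control, 17.9, 25.1 and 24.8 at 1 h, 4.43, 3.11 and 2.46 at 4 h, 1.16, 1.95 and 2.35 at 12 h and 2.93, 0.994 and 2.11 at 24 h. Every treated sample lay below the control samples, with a log2 fold change of -4.91 (SE 0.287, adjusted p = 6.01e-23) at 12 h. Slc46a1, the proton-coupled folate transporter, and Slc29a3, a lysosomal nucleoside transporter, had log2 fold changes of -1.26 and -1.19 at 4 h and were not called at 4, 12 or 24 h.

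Carboxylate and anion transporters, 11 in number, had 1 higher and 2 lower at 4 h, and 0 higher and 3 lower at 12 h. Of all genes, 11.2% were higher and 11.3% lower at 4 h, and 8.78% and 8.46% at 12 h. Slc26a11, an anion transporter, was at 61.7, 69.98 and 76.4 CPM in the control, 2.66, 1.55 and 2.46 at 4 h and 8.798, 4.97 and 12.2 at 24 h, with a log2 fold change of -4.95 (SE 0.324, adjusted p = 1.10e-20) at 4 h. Slc17a5, sialin, which exports sialic acid from lysosomes, was at 39.7, 40.1 and 47.03 CPM in the control and 9.78, 4.97 and 9.27 at 24 h, a log2 fold change of -2.39 (SE 0.2197, adjusted p = 1.53e-14). Slc16a7, the monocarboxylate transporter MCT2, was at 27.4, 21.2 and 24.1 CPM in the control and 4.04, 5.85 and 5.298 at 12 h. No treated sample of these genes reached the control range at the times given. Slc16a1, the lactate transporter MCT1, was at 20.9, 31.5 and 22.98 CPM in the control and 63.8, 87.8 and 64 at 4 h. Its log2 fold change of 1.51 ranged from 1.33 to 1.71 with 1 sample left out. The call was lost without control replicate 1, control replicate 3, 1 h replicate 2 or 4 h replicate 2, with Rn45s kept, with no filter and in the fit of the time course alone. Slc16a6 was at 17.2, 21.7 and 20.3 CPM in the control, 4.43, 6.21 and 3.28 at 4 h and 24.2, 26.7 and 20.6 at 12 h.

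Among 20 ion and pH transporters, 2 were higher and 2 lower at 4 h, 1 and 5 at 12 h, and 0 and 2 at 24 h, beside 11.2% and 11.3%, 8.78% and 8.46%, and 7.62% and 7.34% of all genes. Slc9a9, the endosomal sodium/proton exchanger NHE9, was at 52.6, 54.2 and 49.7 CPM in the control, 17.4, 19.9 and 14.7 at 1 h, 11.5, 12.4 and 12.3 at 4 h, 1.73, 0.6502 and 3.53 at 12 h and 2.93, 3.48 and 4.21 at 24 h. Every treated sample lay below the control samples, and the log2 fold change at 12 h was -4.66 (SE 0.277, adjusted p = 1.45e-22). At 1 h it was -1.61, and -1.49, under the cutoff, without 1 h replicate 3. Slc9a7, the exchanger NHE7, was at 59.01, 48.8 and 54.5 CPM in the control and 10.3, 12.4 and 8.84 at 24 h. Slc12a4, the potassium-chloride cotransporter KCC1, was at 27.4, 34.7 and 32.1 CPM in the control and 134, 114 and 104 at 4 h, a log2 fold change of 1.88 (SE 0.222, adjusted p = 3.82e-08). Slc12a7, the cotransporter KCC4, was at 14.5, 14.1 and 11.8 CPM in the control and 2.31, 3.25 and 2.35 at 12 h, while Slc12a9 of the same family was at 20.4, 20.1 and 17.1 CPM in the control and 66.4, 58.5 and 95.9 at 12 h. Slc12a7 was thus called lower and Slc12a9 higher at 12 h. Slc20a1, a phosphate importer, had a log2 fold change of 1.31 at 1 h and was not called then.

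The choline transporter Slc44a1 was at 87.4, 93.3 and 95.1 CPM in the control, 365, 373 and 337 at 4 h and 64.5, 61.6 and 65.7 at 24 h, with every 4 h sample above the control samples. None of the 20 members of the SLC35 family, grouped here as nucleotide sugar transporters by the family's usual substrate, was called with IFN-LPS. This holds against the control at 1, 4, 12 and 24 h in edgeR's test. Of all genes, 5.02% were called higher and 2.18% lower at 1 h, and 11.2% and 11.3% at 4 h. The shares were 8.78% and 8.46% at 12 h and 7.62% and 7.34% at 24 h. The median log2 fold change of these 20 members was -0.56 at 4 h. A list of 29 members named for their textbook roles, drawn up with earlier results of these data known, held 10 higher and 4 lower members at 4 h, and 6 higher and 3 lower at 12 h, beside 11.2% and 11.3% of all genes at 4 h and 8.78% and 8.46% at 12 h. The list's median log2 fold change was -0.13 at 4 h and 0.56 at 12 h, and the choice of its members bars reading its counts as a result.

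RefSeq promoter windows, 250 bases before to 50 bases after a start (GRCm38.p6), were found for 125 members in 173 windows. Windows are printed here for members with sustained changes, Slc2a6, Slc31a2 and Slc6a12, which were higher, and Slc9a9 and Slc46a3, which were lower. Of several windows, the one nearest the gene's start in GENCODE M21 is printed. Capitals mark a match to a searched motif.
Slc2a6, chr2:27027949-27028248, minus strand: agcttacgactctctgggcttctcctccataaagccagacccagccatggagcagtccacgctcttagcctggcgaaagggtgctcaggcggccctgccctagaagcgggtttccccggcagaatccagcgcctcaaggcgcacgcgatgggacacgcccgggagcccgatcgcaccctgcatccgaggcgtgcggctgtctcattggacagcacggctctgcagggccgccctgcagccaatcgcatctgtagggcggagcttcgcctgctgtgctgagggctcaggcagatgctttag
Slc31a2, chr4:62286179-62286478, plus strand: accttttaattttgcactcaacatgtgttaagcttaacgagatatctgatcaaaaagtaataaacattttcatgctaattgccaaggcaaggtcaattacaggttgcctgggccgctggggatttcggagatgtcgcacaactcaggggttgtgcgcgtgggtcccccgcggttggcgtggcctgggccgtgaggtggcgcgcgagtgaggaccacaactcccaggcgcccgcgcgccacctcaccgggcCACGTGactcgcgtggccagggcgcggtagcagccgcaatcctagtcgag
Slc6a12, chr6:121342826-121343125, plus strand: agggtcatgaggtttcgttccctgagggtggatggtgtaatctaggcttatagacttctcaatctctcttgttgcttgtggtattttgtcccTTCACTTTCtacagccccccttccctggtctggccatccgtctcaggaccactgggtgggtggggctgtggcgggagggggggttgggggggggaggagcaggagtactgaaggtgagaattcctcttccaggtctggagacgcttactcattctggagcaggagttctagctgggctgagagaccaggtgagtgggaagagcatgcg
Slc9a9, chr9:94669642-94669941, plus strand: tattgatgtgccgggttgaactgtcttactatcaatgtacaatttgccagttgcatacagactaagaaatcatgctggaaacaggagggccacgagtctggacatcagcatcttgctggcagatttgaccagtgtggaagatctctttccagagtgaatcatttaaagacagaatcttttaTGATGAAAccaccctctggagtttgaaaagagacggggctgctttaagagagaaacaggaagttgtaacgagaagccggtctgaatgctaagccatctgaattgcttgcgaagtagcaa
Slc46a3, chr5:147894766-147895065, minus strand: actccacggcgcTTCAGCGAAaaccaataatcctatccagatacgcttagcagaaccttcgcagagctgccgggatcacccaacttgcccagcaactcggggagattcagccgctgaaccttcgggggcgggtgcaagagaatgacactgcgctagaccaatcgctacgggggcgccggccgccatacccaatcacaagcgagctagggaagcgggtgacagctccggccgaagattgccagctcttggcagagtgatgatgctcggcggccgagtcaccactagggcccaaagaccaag

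The motifs, searched on both strands with overlaps between motifs allowed, were κB (GGANTTTCC), ISRE (GAAANNGAA), GAS (TTCNNNGAA), AP-1 (TGACTCA), E-box (CACGTG), CARE (TGATGNAA) and the metal response element MRE (TGCGCNC). The window of Slc2a6 held none of them, and that of Slc31a2 held an E-box at its start. The start in that window lies 23867 bases from the gene's GENCODE start, and those in the other printed windows at most 17. Slc6a12 has 5 windows in the table, and the one printed, at its GENCODE start, held an ISRE match 158 bases before the start. Of the 5, 2 held an ISRE match, 1 a κB match and 1 an MRE match. The window of Slc9a9 held a CARE match 69 bases before its start and that of Slc46a3 a GAS match 238 bases before. A κB match stood in 3.03% of the 33 windows of higher members, 0% of the 31 windows of lower members and 1.25% of all 32851 windows. An ISRE match stood in 9.09%, 6.45% and 8.56%, and an E-box in 12.1%, 22.6% and 7.15%. Over all members' windows, the shares were 6.94% for ISRE, 4.62% for GAS, 2.31% for AP-1, 15% for E-box, 2.89% for CARE and 25.4% for MRE, and over all windows 8.56%, 8.3%, 5.2%, 7.15%, 3.97% and 15.4%. These shares are descriptions, with no test.

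Some members are neighbours in mm10 (GENCODE M21), where 12 pairs of successive members lay within 300000 bases of each other. Slc31a2 (chr4:62262562-62298411, plus strand) and Slc31a1 (chr4:62360727-62391769, plus strand) are 62316 bases apart, and both were higher at 12 and 24 h. Slc28a2 (chr2:122426477-122461137, plus strand) and Slc30a4 (chr2:122681233-122702663, minus strand) are 220096 bases apart, and both were higher at 4 h. In the other 10 pairs at most 1 gene was called in the time course.

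The comparison of 12 with 4 h asks which members changed between these times. At 12 h, 11 of 162 members were higher (5.13% of all genes were) and 10 lower (4.4%). The largest rise was that of Slc1a2, 3.797 (SE 0.2203, adjusted p = 2.36e-22) on the log2 scale. Slc16a6 rose by 2.34 and Slc36a1 by 2.201, both lower than the control at 4 h. Among mitochondrial carriers, Slc25a45 rose by 2.02, Slc25a33 by 1.84 and the glycine carrier Slc25a38 by 1.83. The zinc transporters Slc30a4, Slc39a14 and Slc39a8 were lower at 12 h, with log2 differences of -3.005, -2.27 and -2.08. Slc38a2 was at 398, 429.6 and 377 CPM at 4 h and 68.1, 91.03 and 80.6 at 12 h, a log2 difference of -2.32 (SE 0.117, adjusted p = 3.23e-25), with no overlap of the groups. Slc7a5 and Slc7a1 were lower too, with log2 differences of -1.72 and -1.68. The calls of Slc35c1 (1.59) and Slc36a4 (1.66) were lost without 12 h replicate 2, at 1.45 and 1.19, and that of Slc36a4 also without 4 h replicate 3.

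IL-4 and IL-13, cytokines of alternative macrophage activation, were compared with the same control samples at the study's cutoffs, an FDR up to 0.01 and 0.7 or more on the log2 scale. With IL-4, 4 of 162 members were higher (2.1% of all genes were) and 2 lower (1.42%). With IL-13, 5 were higher (2.92%) and 3 lower (1.99%). These were 11 members, 7 higher and 4 lower, and 3 of them, Slc31a2, Slc30a4 and Slc43a2, were called with both cytokines. Slc31a2 was at 59.01, 48.8 and 57.2 CPM in the control, 85.3, 119 and 112 with IL-4 and 121, 125 and 114 with IL-13. Its log2 fold change was 0.92 (SE 0.126, adjusted p = 9.24e-08) with IL-4 and 1.12 (SE 0.124, adjusted p = 1.28e-10) with IL-13. Slc31a1, the other copper transporter, was at 61.3 ± 2.08 CPM in the control, 53.9 ± 1.9 with IL-4 and 55.1 ± 5.69 with IL-13 (mean ± SD, n = 3) and was not called. Slc43a2 was at 355, 302 and 318 CPM in the control, 156, 176 and 169 with IL-4 and 139, 134 and 156 with IL-13, with log2 fold changes of -0.97 and -1.19. Every treated sample lay above the control samples for Slc31a2 and below them for Slc43a2.

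Zinc transporters were also called. Slc30a4 was at 19.3, 19.5 and 11.2 CPM in the control, 28.3, 25.6 and 33.99 with IL-4 and 36.8, 39.9 and 45.5 with IL-13, where the log2 fold change was 1.28 (SE 0.204, adjusted p = 1.89e-06). Its IL-4 value of 0.79 ranged from 0.58 to 0.93 with 1 sample left out, and its call was lost without any 1 of the control or IL-4 samples, without 1 h replicate 1, 24 h replicate 2 or IL-13 replicate 2, with DESeq2, with its size factors and with Rn45s kept. Slc39a6, the zinc importer ZIP6, was at 28.4, 45.03 and 25.6 CPM in the control and 66.2, 65.5 and 67.8 with IL-13, a log2 fold change of 1.005 (SE 0.158, adjusted p = 1.65e-06). Of the 19 metal and haem transporters, 2 were higher with IL-4 and 3 with IL-13, and 0 were lower with either, beside 2.1% and 2.92% of all genes called higher. With IL-4, 1 of these calls is that of Slc30a4, which single samples decide.

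The remaining calls were made with 1 of the cytokines. With IL-4, Slc9a9 was at 31.4, 32.8 and 29.2 CPM, against 49.7 to 54.2 in the control, a log2 fold change of -0.75 (SE 0.157, adjusted p = 3.75e-04). Slc50a1, a sugar efflux transporter, was at 28.3, 40.02 and 31.6 CPM with IL-4 and 19.3, 18.99 and 20.3 in the control, and its call (0.75) was lost with DESeq2, without any 1 of the control samples and without IL-4 replicate 2. The IL-4 call of Slc6a12, named here after its values were seen and at 7.23 to 7.75 CPM, was lost with DESeq2, with its size factors, in the fit of the cytokine groups alone and without any 1 of the IL-4 samples, control replicate 1, control replicate 2, 4 h replicate 3 or 24 h replicate 3. With IL-13, Slc36a2, a proton-coupled amino acid transporter, was at 12.7, 7.16 and 10.6 CPM and 2.15, 1.63 and 3.74 in the control, and its call (1.97) was lost with DESeq2. Slc36a2 passed the count rule only through its IL-13 samples, with 57 counts there and 52 in the other BMDM groups. Part of its difference thus comes with the rule. Slc8a1, the sodium/calcium exchanger NCX1, was at 47.2, 56.8 and 53.6 CPM with IL-13 and 92.3, 81.9 and 95.1 in the control, a log2 fold change of -0.77 that was under the cutoff without IL-13 replicate 1. Slc25a37 and Slc2a6 had log2 fold changes of -1.17 and 0.85 with IL-13. Each of these calls was lost without IL-13 replicate 1 or IL-13 replicate 2, that of Slc25a37 also without control replicate 3, and that of Slc2a6 also without control replicate 2 and in the fit of the cytokine groups alone.

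**Figure D4:**
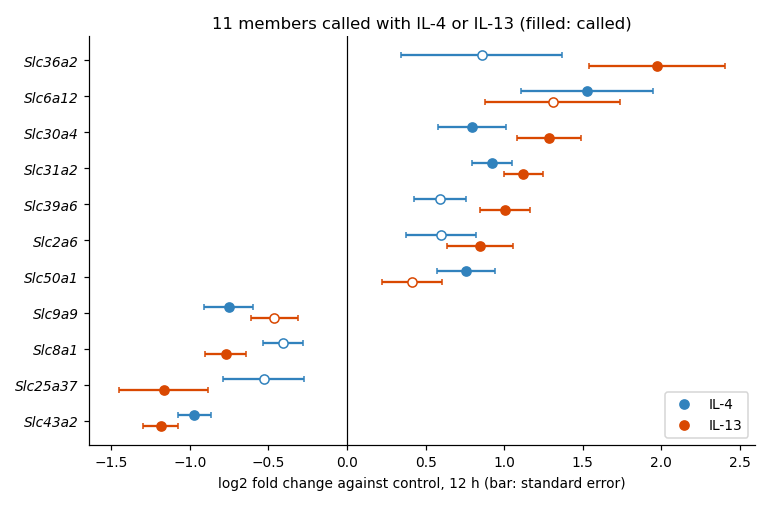
Log2 fold change against control BMDMs, with SEs derived from the test statistic as bars, for the 11 members called with IL-4 or IL-13 at 12 h. Filled points passed the cutoffs. For each of the 11 the values with both cytokines have the same sign, and both comparisons share their control samples.

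Between IL-13 and IL-4 directly, edgeR's quasi-likelihood test called 0 members higher (0.0508% of all genes were) and 0 lower (0.0%), and DESeq2 also called 0. At an unadjusted p under 0.05 there were 17 members of 162 and 586 genes of 9841. The log2 difference, IL-13 minus IL-4, was 0.20 (95% interval -0.02 to 0.42, adjusted p = 0.888) for Slc31a2. For Slc36a2 it was 1.11 (95% interval 0.36 to 1.86, adjusted p = 0.492), and for Slc39a6 it was 0.41 (95% interval 0.12 to 0.71, adjusted p = 0.543). The intervals of Slc36a2 and Slc39a6 reach past the cutoff of 0.7. So, in size, do those of Slc30a4 (0.13 to 0.85), Slc25a37 (-1.24 to -0.03) and Slc6a12 (-0.88 to 0.45). Differences of that size remain within these intervals. The intervals rest on the derived SEs and, unlike the adjusted p-values of edgeR's test, are not adjusted for the number of genes. Slc36a2 passed the count rule only through its IL-13 samples, so part of its difference comes with the rule.

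At 12 h, IFN-LPS and IL-4 were compared with each other at the cutoff of 1.5. Of 162 members, 13 were higher with IFN-LPS (8.99% of all genes were) and 17 lower (7.46%). Slc1a2, Slc2a6, Slc28a2 and Slc25a37 were higher by log2 differences of 8.76, 6.097, 4.59 and 3.69. Slc31a2, which was higher than the control with both stimuli, was higher with IFN-LPS than with IL-4, at 2.56 (SE 0.106, adjusted p = 3.09e-30) on the log2 scale. Slc27a6, a fatty acid transport protein, was at 7.85, 12.2 and 11.3 CPM with IL-4 and had 0 counts in all 3 samples at 12 h of IFN-LPS, where 3 counts over the group would be 0.518 CPM. Slc27a6 passed the count rule only through its IL-4 samples, with 56 counts there and 68 in the other BMDM groups. Part of its difference thus comes with the rule. Slc46a3, Slc9a9, Slc26a11 and Slc30a4 were lower with IFN-LPS, with log2 differences of -4.73, -3.903, -3.19 and -2.12.

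RAW264.7 cells ask how a cell line compares with primary macrophages. Control RAW264.7 and control BMDMs were compared in a fit of all 25 samples with a log2 cutoff of 2. All 164 members were tested, and 11 were higher in RAW264.7 (9.67% of all genes were) and 30 lower (13.3%). The count rule used BMDM samples only, so genes expressed in RAW264.7 alone could not be members. All genes were not held to that rule, so part of the balance of higher and lower members can come with it. Origin, medium and the macrophage, stromal and endothelial markers given above differ with the cells and cannot be told apart. Of the 22 members grouped by family as amino acid transporters, 5 were higher, beside 9.67% of all genes. Slc7a5 was at 17 and 27.5 CPM in RAW264.7 against 1.08 to 3.74 in BMDMs, Slc7a1 at 108 and 117 against 12.9 to 22.8, and Slc1a5 at 69.04 and 77.2 against 13.6 to 16.1. Slc6a12 was at 172 and 163 CPM against 1.61 to 3.74. Slc16a1 was at 448 and 446 CPM against 20.9 to 31.5, a log2 difference of 4.15 (SE 0.201, adjusted p = 1.03e-16). Slc19a1, the reduced folate carrier, was at 77.4 and 92.8 CPM against 10.2 to 14.96. Slc2a6 and Slc2a3 were at 89.2 and 96.7 CPM against 8.14 to 12.8, and 27.8 and 28.6 against 3.797 to 5.34. None of these genes had overlapping samples between the cells, which was a condition for naming them.

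Grouped by family, the 30 lower members included 5 of 22 amino acid transporters and 5 of 20 ion and pH transporters. They also included 5 of 11 transporters of peptides, nucleosides and vitamins. Of all genes, 13.3% were lower, and the differences between shares were not tested. Slc8a1 and Slc9a7 had 0 counts in both control RAW264.7 samples, where 3 counts over the group would be 0.695 CPM, and were at 89.8 ± 6.95 and 54.1 ± 5.103 CPM in control BMDMs (mean ± SD, n = 3). Slc6a8, the creatine transporter, was at 2.43 and 0.725 CPM against 97.7 to 115. Slc15a3 was at 27.8 and 24.3 CPM against 441 to 512, a log2 difference of -4.200 (SE 0.137, adjusted p = 4.27e-40). Slc29a3 was at 5.204 and 5.797 CPM against 57.4 to 69.5. Slc46a3 and Slc26a11, both lower in BMDMs with IFN-LPS, were at 2.08 and 3.62 CPM and 2.08 and 1.45 CPM in control RAW264.7.

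With LPS for 4 h in RAW264.7, 144 members were tested at a log2 cutoff of 2, and 3 were higher (2.39% of all genes were) and 1 lower (0.829%). Slc15a3 went from 27.8 and 24.3 to 209 and 221 CPM, a log2 fold change of 3.08 (SE 0.123, adjusted p = 7.57e-134). Slc31a2 went from 7.98 and 9.42 to 46.6 and 49.9 CPM, a log2 fold change of 2.51 (SE 0.206, adjusted p = 1.71e-32). Slc4a7, a sodium bicarbonate cotransporter, went from 58.98 and 63.8 to 254 and 270.0 CPM, a log2 fold change of 2.13 (SE 0.102, adjusted p = 3.08e-94). All 3 had both LPS samples above both control samples. Slc44a2, a choline-like transporter, went from 45.5 and 40.2 to 9.95 and 10.7 CPM, and its log2 fold change of -2.002 was under the cutoff with no filter, with the replicate block, without control replicate 1 and without LPS replicate 1. Slc12a4 and Slc20a1 had log2 fold changes of 1.801 and 1.37 and were not called. With 2 samples a group, the precision is low. The small p-values of edgeR's test here rest on variances shared over genes. They do not measure each gene's own spread between 2 samples.

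The 4 h response of RAW264.7 to LPS was tested against that of BMDMs to IFN-LPS in the fit of all samples. The cells and the stimulus differ together and cannot be told apart. Of 164 members, 7 had a higher response in RAW264.7 (3.38% of all genes did) and 9 a lower one (4.88%). Slc2a6 was at 106 and 105 CPM with LPS in RAW264.7 against 89.2 and 96.7 without. Its log2 fold change was 0.18 there and 7.04 in BMDMs, a difference of -6.86 (SE 0.194, adjusted p = 6.48e-43). Slc6a12 was at 107 and 106 CPM with LPS and 172 and 163 without in RAW264.7, log2 fold changes of -0.66 there and 2.59 in BMDMs. Slc7a5 and Slc7a1, both higher in control RAW264.7 than in control BMDMs, had log2 fold changes of 0.53 and 0.06 in RAW264.7 and 3.56 and 2.42 in BMDMs. Slc15a3 and Slc31a2 were called higher in both cells, and their responses differed by 1.42 (SE 0.172, adjusted p = 1.22e-10) and -0.30 (SE 0.267, adjusted p = 0.4305), both under the cutoff of 2.

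**Figure D5:**
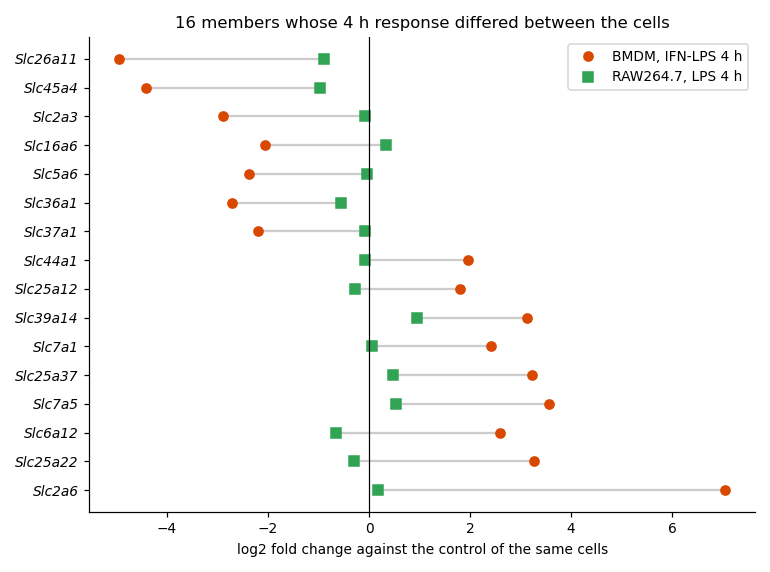
Log2 fold change at 4 h for the 16 members whose responses differed, from the fit of all 25 samples, for BMDMs with IFN-LPS and RAW264.7 with LPS, each against its own control. The RAW264.7 values lie between -0.98 and 0.94 and the BMDM values between -4.94 and 7.04.

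Some members have counts that cannot be assigned firmly. Counts on the opposite strand made up 59.2% of both strands' counts in BMDMs for Slc24a5, 50.2% for Slc5a6, 41.3% for Slc18a1, 15.5% for Slc35e2 and 11.7% for Slc16a6, so the values of these members are uncertain.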

How the data were processed

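RNA from 21 BMDM and 4 RAW264.7 samples was sequenced as paired reads with a directional kit after ribosomal RNA removal, although the labels give the molecule as polyA RNA. The submitters' processing notes name CASAVA 1.8.2, Trimmomatic 0.33, STAR 2.5.1, DESeq2 and mm10. The annotation release is not given in the sources used here. The authors deposited whole-number counts of reads per gene for each sample, unstranded and for each strand, and the reverse-strand counts were used (the ratio of the strands was 93.9 to 158). Reads on no gene were 62.7% to 69.1% and were left out, as was Rn45s, 20.1% to 39.8% of counts on genes.

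Counts were fitted with edgeR 4.0.16 (R 4.3.3, filterByExpr, TMM, robust quasi-likelihood test, Benjamini-Hochberg adjustment): 21 BMDM samples together, 4 RAW264.7 samples together, and all 25 for comparisons between the cells. The fits were tested on simulated data. Cutoffs for a stimulus against the control of the same cells were those of the study, which used DESeq2. For the other comparisons, cutoffs of the same sizes were chosen here. Alternatives were DESeq2 1.42.0, its size factors, no filter, unstranded counts, Rn45s kept, other samples in the fit, the replicate block and each sample left out. Counts per sample set the precision. The p-values cover the spread between samples, with variances shared in part over genes. Exon lengths and positions came from GENCODE M21 (mm10) and promoters from RefSeq (GRCm38.p6). For each comparison, up to 10 members in each direction were named if called, without overlap of the groups and with a mean of at least 10 CPM, besides the 10 highest per kb and 29 chosen by textbook role. The members and lists were chosen with earlier results of these data known. Replicate pairs of a group differed by 1.30 to 4.53 chi-square per gene, so none was treated as 1 library. Python 3.11.15, pandas 2.3.3 and matplotlib 3.10.9 were used for summaries and figures.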

Additional observations from a re-analysis of the deposited data

Results flagged for a closer look

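The 4 h responses of RAW264.7 to LPS and of BMDMs to IFN-LPS differed by the test of the difference itself in 16 members, 7 with a higher and 9 with a lower response in RAW264.7. The log2 differences, RAW264.7 minus BMDM, were above 0 for Slc26a11 (4.05), Slc45a4 (3.43), Slc2a3 (2.803), Slc16a6 (2.404), Slc5a6 (2.33), Slc36a1 (2.16) and Slc37a1 (2.12). They were below 0 for Slc2a6 (-6.86), Slc25a22 (-3.57), Slc6a12 (-3.24), Slc7a5 (-3.04), Slc25a37 (-2.75), Slc7a1 (-2.36), Slc39a14 (-2.18), Slc25a12 (-2.07) and Slc44a1 (-2.04). Slc26a11, at 0.398 and 1.39 CPM with LPS in RAW264.7, had a difference of 2.96 that was not called without RAW264.7 LPS replicate 2. The call of Slc2a3 was lost with DESeq2 and without control replicate 3, 4 h replicate 2, 4 h replicate 3 or RAW264.7 LPS replicate 2, with values down to 2.23. That of Slc5a6 was lost with DESeq2 and without control replicate 2, 4 h replicate 2, RAW264.7 control replicate 1 or RAW264.7 LPS replicate 1, with values down to 1.72. Slc36a1 was not called without RAW264.7 control replicate 2, Slc37a1 without 4 h replicate 2 or RAW264.7 LPS replicate 2, and Slc25a12 without RAW264.7 LPS replicate 2. Slc44a1 was not called with Rn45s kept or without control replicate 1, RAW264.7 control replicate 1 or RAW264.7 LPS replicate 1. The cells and the stimulus cannot be told apart.

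Between 12 and 4 h of IFN-LPS, the difference was called in 21 members, 11 higher and 10 lower at 12 h. Among those named, the log2 differences, 12 h minus 4 h, were above 0 for Slc1a2 (3.797), Slc16a6 (2.34), Slc36a1 (2.201), Slc25a45 (2.02), Slc25a33 (1.84), Slc25a38 (1.83), Slc36a4 (1.66), Slc8b1 (1.59) and Slc35c1 (1.59). They were below 0 for Slc30a4 (-3.005), Slc9a9 (-2.54), Slc38a2 (-2.32), Slc39a14 (-2.27), Slc12a7 (-2.203), Slc39a8 (-2.08), Slc7a5 (-1.72) and Slc7a1 (-1.68).

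Reads on the strand opposite to Slc24a5 were higher with LPS in RAW264.7, at 37.4 ± 5.62 CPM against 25.97 ± 2.33 CPM in the control (SD, n = 2), a value outside the counts used for the comparisons. The difference was not tested.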

How the results depend on the processing

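Of the counts of members called under settings other than leaving out a sample, 161 stayed within 1.5 times and 7 did not, and 0 of the named genes turned direction under any setting. At 1 h the lower count was 1 with DESeq2 and 1 in the fit of the time course alone, the higher IL-4 count was 1 with DESeq2 and 2 with its size factors, the higher IL-13 count was 8 with no filter, and the lower RAW264.7 LPS count was 0 with no filter and 0 with the replicate block. The cause was not tested. With 1 sample left out, the counts higher and lower were 3 to 4 and 1 to 3 at 1 h, 19 to 21 and 14 to 20 at 4 h, 13 to 14 and 19 to 22 at 12 h, 12 and 13 to 15 at 24 h, 10 to 13 and 9 to 11 between 12 and 4 h, 1 to 5 and 2 to 3 with IL-4, 4 to 7 and 1 to 3 with IL-13, 13 to 15 and 15 to 18 between IFN-LPS and IL-4, 3 to 4 and 0 to 1 with LPS in RAW264.7, 11 to 12 and 29 to 34 between the controls, and 4 to 8 and 8 to 9 for the difference in response. The higher IL-4 count was 1 or 2 without any 1 of IL-4 replicate 2, control replicate 1 and control replicate 3. The higher count for the difference in response was 4 without 4 h replicate 2. The lower IL-13 count was 1 without IL-13 replicate 1. The lower 1 h count was 1 without any 1 of 12 h replicate 2, 1 h replicate 1, 24 h replicate 2, 24 h replicate 3, 4 h replicate 2, 4 h replicate 3, IL-13 replicate 1, IL-13 replicate 2, IL-13 replicate 3, IL-4 replicate 1, IL-4 replicate 2, IL-4 replicate 3, control replicate 2 and control replicate 3. The lower RAW264.7 LPS count was 0 without any 1 of RAW264.7 LPS replicate 1 and RAW264.7 control replicate 1. The deviations of same-numbered BMDM samples had a mean correlation of 0.0143 over 63 pairs, so the numbers were not taken to pair the samples. With the replicate block, 5 members were higher with IL-4 and 6 with IL-13, and all counts but these and that of RAW264.7 LPS were as without it. The summed CPM of members was 9666, 11540, 14350, 13340, 11240, 9498, 9710, 8277 and 8922 in the BMDM control, 1, 4, 12 and 24 h, IL-4, IL-13, RAW264.7 control and RAW264.7 LPS groups. It was 10620, 10890, 10540, 11460, 10550, 10380, 10820, 10820 and 10590 without TMM factors and 6658, 7938, 9735, 9030, 7772, 6522, 6673, 5689 and 6333 with Rn45s in the library size, so the 4 h sum was above that of the control with TMM factors and with Rn45s in the library size, and below it without TMM factors. DESeq2 moved the median log2 fold change of all genes at 4 h to -0.12. Depth limits members below 10 CPM, which rest on few counts.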

Other observations

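Slc9a4 and Slc6a13 matched the symbol pattern but not the count threshold in BMDMs. Slc9a4 had 447 counts over the 4 RAW264.7 samples and 13 over the 21 BMDM samples, and Slc6a13 had 220 and 81. They were in no comparison.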
